A study of Mus musculus with 6 samples.

Results

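Endothelial marker genes were followed in bulk RNA-seq data from PDVC57, a mouse cell line derived from keratinocytes that forms squamous carcinomas. The set holds 9 genes chosen by name, Pecam1, Cdh5, Tek, Tie1, Emcn, Egfl7, Esam, Eng and Vwf, out of 55385 mouse gene rows in the deposited count table. All 9 were found by symbol, and 8 of them passed the filter on low counts. Emcn did not. The labels give 2 groups of 3 libraries each, Sox2 KO and Sox2 overexpression, called knockout and overexpression here. They name no unmodified control. Fell and rose therefore mean lower or higher with overexpression than with knockout, and which group changed cannot be told. All 6 libraries carry the same cell line label, and the design text of the series describes cells low or high in Sox2 taken out of grafted tumours. How Sox2 was disrupted or supplied, whether a group is 1 clone, the host animal and how the tumour cells were isolated are not given in the sources used here. Nothing says that the libraries came from separate tumours, so p-values measure the spread between these libraries, which may be technical.

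Endothelial cells line blood and lymph vessels. They hold together through junctions built on VE-cadherin and PECAM-1, receive angiopoietin signals through Tie receptors and BMP signals through endoglin, and store von Willebrand factor for release at sites of injury. In grafted carcinomas the vessels are made by the host, and none of these genes is a marker of keratinocytes. Several are not exclusive to endothelium: Pecam1 is also present on leukocytes and platelets, Vwf in megakaryocytes, and Eng on fibroblasts and macrophages. In bulk RNA, fewer cells of a type and less RNA per cell cannot be told apart.

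Library totals lay between 31247976 and 38543221 counts over mouse genes. A total of 3 counts, the limit that a count of 0 allows, corresponded to 0.0759 to 0.101 CPM (counts scaled to the TMM-adjusted library size), and this covers counting error only. Folds given below as at least a value set the knockout mean against 3 counts in the shallowest overexpression library. They leave out the spread of the knockout libraries and, for overexpression counts above 0, part of the counting error. The targeted gene followed the labels, with 25 to 49 counts of Sox2 in knockout libraries and 2566 to 4095 in overexpression libraries. Keratinocyte identity was visible in all 6 libraries, where 23 epithelial markers summed to between 5098 and 8558 CPM with knockout and between 14325 and 18505 CPM with overexpression. Within a group the correlation of log2 CPM across genes was at least 0.973. Knockout replicate 3 stood apart in its markers of endothelium and leukocytes, so values without it are given beside the results that it moves most.

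Of the 8 tested endothelial markers, 7 fell with overexpression and 1, Tek, did not pass the threshold (edgeR quasi-likelihood test, adjusted p under 0.05). Over all 18504 tested genes the same test called 18% lower, 13.6% higher and 31.6% in either direction. The 9 genes and the other lists were chosen with earlier results of these data known. Setting them beside these shares is a description only. The median log2 fold change of the 8 genes was -3.75, beside -0.02 for all tested genes. For 8 of the 9 genes, all but Tek, every overexpression library lay below every knockout library, which was so for 26.5% of tested genes. Summed over the 9 genes, the libraries held 62.5, 95.9 and 162 CPM in knockout replicates 1, 2 and 3, and 21.9, 16.5 and 22.1 CPM in overexpression replicates 1, 2 and 3. Tek made up 15.5% to 25.8% of that sum with knockout and 56.6% to 77.2% with overexpression. Without Tek, the sums were 52.9 to 128 CPM and 5.005 to 7.17 CPM. The number of markers that fell was again 7 without knockout replicate 3, and was 6 without overexpression replicate 2.

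**Figure D1:**
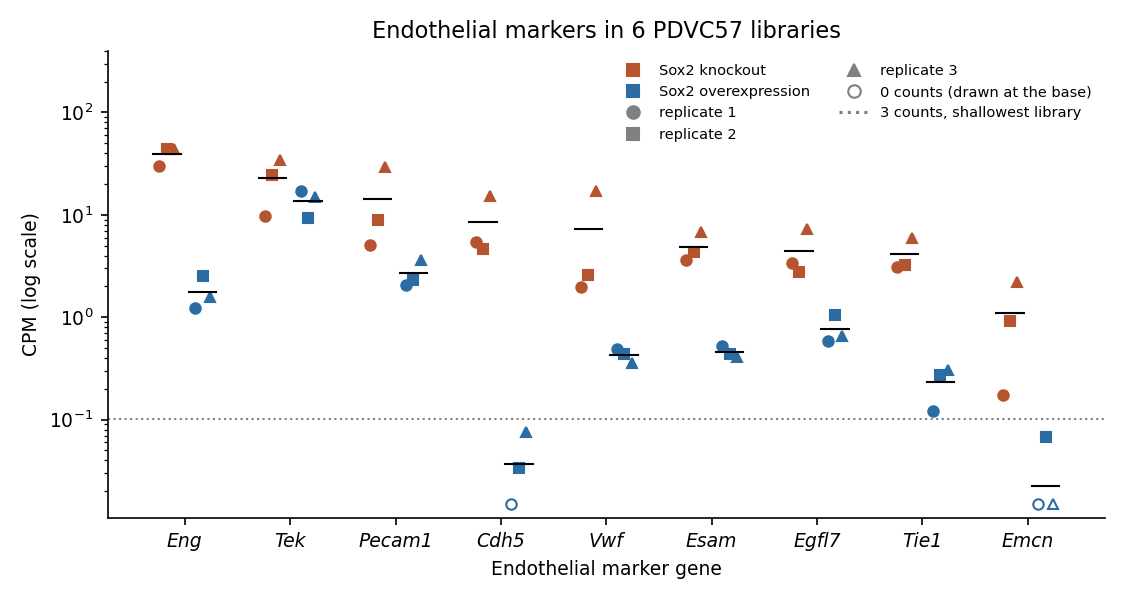
CPM of the 9 endothelial markers on a log scale, with 1 point per library (knockout in brown, overexpression in blue, symbols for replicates) and black bars for group means (n = 3 each). The groups overlap for Tek only, and Cdh5 and Emcn lie at 3 counts or fewer in every overexpression library.

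Cdh5, Pecam1 and Esam encode proteins of the endothelial junction. Cdh5 encodes VE-cadherin, the cadherin of endothelial adherens junctions (ENSMUSG00000031871, chromosome 8, 104101625 to 104144511, plus strand, GRCm38). Replicates 1, 2 and 3 held 186, 141 and 560 counts with knockout, against 0, 1 and 3 with overexpression. The groups did not overlap, and no overexpression library was above the limit that a count of 0 allows. By its knockout mean, Cdh5 was at least 83.6-fold lower with overexpression, relative to 3 counts in the shallowest overexpression library (edgeR, adjusted p = 0.000158). The value was 49.8-fold without knockout replicate 3, and the lowest knockout library was at 4.66 CPM.

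Pecam1 encodes PECAM-1 (CD31), a homophilic adhesion molecule at the same contacts (ENSMUSG00000020717, chromosome 11, 106654217 to 106750628, minus strand). Its levels were 5.07, 8.86 and 29.1 CPM with knockout and 2.08, 2.33 and 3.64 CPM with overexpression. All overexpression libraries lay below all knockout libraries, and the knockout libraries spread much more widely than the overexpression libraries. The means were 14.3 ± 12.9 and 2.68 ± 0.84 CPM (SD, n = 3 each), for a fitted log2 change of -2.41 (standard error, SE, 0.61, edgeR, adjusted p = 0.0162). Without knockout replicate 3 the log2 fold change was -1.36 (adjusted p = 0.0258), and without overexpression replicate 2 the adjusted p was 0.0778. Unlike Cdh5, Pecam1 kept 68 to 144 counts in each overexpression library. Per count of Pecam1 the knockout libraries held 1.08, 0.526 and 0.528 counts of Cdh5 and the overexpression libraries at most 0.0208, a ratio looked at after both genes were seen.

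Esam encodes an immunoglobulin-type adhesion molecule of endothelial tight junctions (ENSMUSG00000001946, chromosome 9, 37528078 to 37538319, plus strand). It was measured at 3.61, 4.36 and 6.74 CPM with knockout and at 0.519, 0.44 and 0.405 CPM with overexpression. The groups were well apart and the overexpression libraries were close to each other. The means of 4.9 ± 1.64 and 0.454 ± 0.0584 CPM (SD, n = 3 each) gave a log2 fold change of -3.42 (SE 0.37, edgeR, adjusted p = 0.000188).

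The proteins with which VE-cadherin and Esam act were read from a list of 10 catenins, junction adhesion molecules and scaffolds, all tested. Of these, 1 fell, 3 rose and 6 did not pass, beside 18% called lower and 13.6% called higher over all tested genes. Jam3, a junctional adhesion molecule of endothelial and mesenchymal cells, fell from 11.1 ± 1.94 to 0.199 ± 0.178 CPM (SD, n = 3 each), for a fitted log2 change of -5.71 (edgeR, adjusted p = 6.71e-05). It had 3, 3 and 16 counts in the overexpression libraries, and its log2 fold change was -6.79 without overexpression replicate 3. Its exons overlap an antisense gene, Gm48796. Jup (plakoglobin), F11r (JAM-A) and Ctnnd1 (p120-catenin), which epithelial junctions also use, rose by 1.11, 0.86 and 0.51 on the log2 scale (edgeR, adjusted p = 0.00219, 0.0032 and 0.0283). With libraries scaled to the median ratio of the tested epithelial markers (epithelial scaling), the values of all 3 were negative (-0.04, -0.28 and -0.66), and 6 of the 10 genes were called lower and 0 higher. This scaling called 12123 of all 18504 tested genes lower. The call of Ctnnd1 was lost in 5 of the 6 fits that left out 1 library (adjusted p between 0.0525 and 0.123), all but that without overexpression replicate 2, and with the replicate number as a block (adjusted p = 0.0529). Its exons overlap those of Gm28635 on the same strand.

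The Tie receptors are a pair of related receptor tyrosine kinases. Tek encodes Tie2, which binds angiopoietins, and Tie1 encodes its co-receptor, for which no angiopoietin is a direct high-affinity ligand. Tie1 (ENSMUSG00000033191, chromosome 4, 118471191 to 118490061, minus strand) had 105, 98 and 219 counts with knockout and 4, 8 and 12 counts with overexpression. The highest overexpression library held far fewer counts than the lowest knockout library. Its level fell from 4.11 ± 1.64 to 0.232 ± 0.0967 CPM (SD, n = 3 each), for a fitted log2 change of -4.12 (SE 0.48, edgeR, adjusted p = 0.000289).

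Tek (ENSMUSG00000006386, chromosome 4, 94739289 to 94874976, plus strand) had 330, 748 and 1256 counts with knockout and 554, 276 and 596 counts with overexpression. The groups overlapped, since overexpression replicates 1 and 3 lay above knockout replicate 1. The means were 22.9 ± 12.5 and 13.8 ± 3.95 CPM (SD, n = 3 each), and the log2 fold change of -0.74 with an SE of 0.42 did not pass the threshold (edgeR, adjusted p = 0.216). Tek passed as lower without knockout replicate 1 (log2 fold change -1.102, adjusted p = 0.0234), and its log2 fold change was -0.31 without knockout replicate 3. Over all alternatives its adjusted p ranged from 8.1e-05, with libraries scaled to the epithelial markers, to 0.612.

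The counts of the 2 receptors were also set against each other within each library. There were 3.14, 7.63 and 5.74 counts of Tek per count of Tie1 in knockout replicates 1, 2 and 3, and 138.5, 34.5 and 49.7 in overexpression replicates 1, 2 and 3. On the log2 scale the ratio was 2.37 ± 0.653 with knockout and 5.95 ± 1.04 with overexpression (SD, n = 3 each), a difference of 3.58. The groups did not overlap, and an exact permutation test over the 6 libraries gave p = 0.1 (two-sided), the smallest value that 3 against 3 libraries allow. This ratio was chosen after the values of both genes were seen.

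The windows around the gene starts of Tie1, Tek, Eng and Emcn are shown because 3 of these genes were lower in every overexpression library and Tek was not. Each runs from 250 bases before to 50 bases after the RefSeq gene start on GRCm38.p6, 5′ to 3′ on the strand of the gene. Capitals mark matches on either strand, also as the reverse complement, to 2 motifs. The first is AGGAAG, a core recognised by ETS factors such as those of endothelium. The other is the GATA-factor motif AGATAA. No 2 of the matches overlapped. The windows lie at chr4:118489800-118490099 (Tie1, minus strand), chr4:94739039-94739338 (Tek, plus strand), chr2:32646345-32646644 (Eng, plus strand) and chr3:137340828-137341127 (Emcn, plus strand).
Tie1: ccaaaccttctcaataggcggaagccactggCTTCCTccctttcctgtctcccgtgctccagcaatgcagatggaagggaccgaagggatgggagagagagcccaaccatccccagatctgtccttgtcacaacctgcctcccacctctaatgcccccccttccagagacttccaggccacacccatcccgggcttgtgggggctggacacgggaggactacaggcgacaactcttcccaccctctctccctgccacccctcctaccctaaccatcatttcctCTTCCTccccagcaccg
Tek: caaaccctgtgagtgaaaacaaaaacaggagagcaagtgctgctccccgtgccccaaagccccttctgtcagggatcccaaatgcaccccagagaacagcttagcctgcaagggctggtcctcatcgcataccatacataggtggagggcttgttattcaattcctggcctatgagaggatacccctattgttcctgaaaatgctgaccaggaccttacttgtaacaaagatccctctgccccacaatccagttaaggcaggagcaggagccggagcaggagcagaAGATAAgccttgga
Eng: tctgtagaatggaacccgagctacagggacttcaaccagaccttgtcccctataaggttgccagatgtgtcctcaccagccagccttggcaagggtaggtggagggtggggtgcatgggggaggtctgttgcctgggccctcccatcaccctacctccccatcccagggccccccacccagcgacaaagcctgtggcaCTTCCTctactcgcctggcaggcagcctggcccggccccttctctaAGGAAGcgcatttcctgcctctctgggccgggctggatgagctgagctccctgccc
Emcn: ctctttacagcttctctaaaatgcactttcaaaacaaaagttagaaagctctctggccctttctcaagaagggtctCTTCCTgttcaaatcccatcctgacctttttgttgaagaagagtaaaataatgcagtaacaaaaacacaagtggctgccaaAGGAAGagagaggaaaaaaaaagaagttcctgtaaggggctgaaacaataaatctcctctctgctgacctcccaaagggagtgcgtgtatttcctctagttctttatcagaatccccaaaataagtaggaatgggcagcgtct
The windows of Tie1, Eng and Emcn each held 2 matches to AGGAAG, and that of Tek held 0. The window of Tek held 1 match to AGATAA, and those of the other 3 held 0. Egfl7 had 3 windows for its 3 gene starts, with 3, 2 and 0 matches to AGGAAG. Among 32851 windows of the same length, 35.4% held AGGAAG and 11.2% held AGATAA. These matches describe letters in a window and no factor was measured on them. Windows were matched for 5 of the 9 genes, and Pecam1, Cdh5, Esam and Vwf had none in the table.

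The ligands and partners of the Tie receptors were read from a list of 7 genes, all tested. In this list 3 genes fell, 2 rose and 2 did not pass, and the median log2 fold change was -0.67. The shares over all tested genes were 18% lower and 13.6% higher. Angpt1, the activating ligand of Tie2, had 23.0 ± 1.59 CPM with knockout and 33.0 ± 9.03 CPM with overexpression (SD, n = 3 each), which did not pass (edgeR, adjusted p = 0.103). It passed without overexpression replicate 2 (log2 fold change 0.73, adjusted p = 0.00562). Its exons share 737 bases with the antisense gene Gm17473. Angpt2, the ligand that blocks or activates Tie2 by context, had a log2 fold change of -0.67 (edgeR, adjusted p = 0.145). Angpt4, a further Tie2 ligand, had 169, 201 and 196 counts with knockout and 3, 3 and 2 with overexpression. Its knockout mean was 55.7-fold the level of 3 counts in the shallowest overexpression library (edgeR, adjusted p = 1.07e-05). Since its counts reached 3, this is no strict bound.

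Svep1, a large matrix protein that acts as a ligand of Tie1, fell from 174 ± 45.6 to 0.613 ± 0.237 CPM (SD, n = 3 each), for a fitted log2 change of -8.16 (edgeR, adjusted p = 1.56e-06). Its exons overlap those of Gm26889 on the other strand. Ptprb (VE-PTP), the phosphatase that restrains Tie2 and VE-cadherin signalling, had at most 2 counts in an overexpression library and was at least 25.8-fold lower (edgeR, adjusted p = 0.00218), or at least 10.9-fold lower without knockout replicate 3. Dok2, an adaptor that docks on Tie2 and also serves in leukocytes, rose from 6.19 ± 2.64 to 45.6 ± 30.2 CPM (SD, n = 3 each). The fitted log2 value of 2.88 (edgeR, adjusted p = 0.00208) was 2.19 without overexpression replicate 2. Foxo1, a transcription factor held out of the nucleus by Tie2 signalling, rose by 0.67 on the log2 scale (edgeR, adjusted p = 0.00586). It had a value of -0.51 under the epithelial scaling, and its exons share 674 bases with the antisense gene Gm20402.

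Eng encodes endoglin, a co-receptor that presents BMP9 and BMP10 to the receptor ALK1 on endothelium (ENSMUSG00000026814, chromosome 2, 32646595 to 32682669, plus strand). It had the highest CPM of the 9 genes with knockout, at 30.1, 43.7 and 43.9 CPM, against 1.22, 2.54 and 1.59 CPM with overexpression. The groups were far apart and the knockout libraries were alike. Its mean fell from 39.3 ± 7.91 to 1.78 ± 0.678 CPM (SD, n = 3 each), for a fitted log2 change of -4.47 (SE 0.31, edgeR, adjusted p = 1.28e-05), and of -4.37 without knockout replicate 3. A stretch of 61 exon bases is shared with Fpgs on the other strand.

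Of 15 genes of the endoglin pathway, 12 were tested, of which 4 fell, 2 rose and 6 did not pass. Their median log2 fold change was -0.09. The shares over all tested genes were 18% lower and 13.6% higher. Under the epithelial scaling 9 of the 12 were called lower and 0 higher, beside 12123 of all 18504 tested genes called lower. Acvrl1, which encodes ALK1, had 612, 1078 and 1390 counts with knockout and 15, 18 and 21 with overexpression. No overexpression library came near the knockout range, and the log2 fold change was -5.84 (SE 0.36, edgeR, adjusted p = 7.07e-06). Its exons overlap those of the antisense gene Gm16031. Id3, a target of BMP signalling, fell by 2.26 on the log2 scale (edgeR, adjusted p = 0.000806), and Tgfbr2, the type II TGF-beta receptor, by 1.12 (adjusted p = 0.00266). Id1, another such target, had 23.7 ± 4.64 CPM with knockout and 37.4 ± 10.5 CPM with overexpression (SD, n = 3 each). All its overexpression libraries lay above its knockout libraries, but it did not pass (log2 fold change 0.66, edgeR, adjusted p = 0.061). Smad1, a BMP-responsive SMAD, fell by 0.57 (edgeR, adjusted p = 0.0286), but its adjusted p lay between 0.0521 and 0.128 without knockout replicate 1 or 2 or overexpression replicate 1 or 3.

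The inhibitory Smad6 and Smad7 rose by 1.15 and 0.71 on the log2 scale (edgeR, adjusted p = 0.00192 and 0.0199), and their log2 fold changes were -0.03 and -0.46 under the epithelial scaling. Smad7 did not pass when knockout replicate 1 (adjusted p = 0.068) or 3 (0.0665) was left out. The ligand genes of endoglin were at or under the limit of detection. Gdf2 (BMP9) had 0 counts in all 6 libraries, and Bmp10 had 3 counts in knockout replicate 1 and 0 elsewhere. Smad9 did not pass the count filter either.

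The remaining 3 markers are products that endothelial cells secrete or carry on their surface. Egfl7 encodes a secreted factor of vessel tube formation (ENSMUSG00000026921, chromosome 2, 26580014 to 26593120, plus strand). It was at 3.4, 2.74 and 7.29 CPM with knockout and at 0.58, 1.05 and 0.658 CPM with overexpression. The groups did not overlap. The mean fell from 4.48 ± 2.46 to 0.762 ± 0.251 CPM (SD, n = 3 each), for a fitted log2 change of -2.56 (SE 0.47, edgeR, adjusted p = 0.0034). Its exons share 264 bases with Gm20532 on the same strand and 64 bases with Agpat2 on the other, and 73 bases with the microRNA gene Mir126a, whose own row held 0 counts in all 6 libraries.

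Emcn encodes endomucin, a sialomucin of venous and capillary endothelium (ENSMUSG00000054690, chromosome 3, 137341067 to 137432185, plus strand). It had 6, 28 and 81 counts with knockout and 0, 2 and 0 with overexpression. It was the least abundant of the 9 genes and did not pass the count filter, and every overexpression library was under the limit that a count of 0 allows. By its knockout mean, Emcn was at least 10.9-fold lower with overexpression relative to that limit, or 5.43-fold without knockout replicate 3. Knockout replicate 1, at 0.176 CPM, lay close above the 0.101 CPM of 3 counts in the shallowest overexpression library. When no count filter was applied, Emcn was called lower (edgeR, adjusted p = 2.21e-05). That fit gave smaller adjusted p-values for the other markers too (Pecam1, 5.8e-06 against 0.0162 with the filter). Its values are therefore not comparable with those of the main fit.

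Vwf encodes von Willebrand factor, the multimeric protein of Weibel-Palade bodies that tethers platelets (ENSMUSG00000001930, chromosome 6, 125546774 to 125686679, plus strand). It had 67, 79 and 627 counts with knockout and 16, 13 and 14 counts with overexpression. Knockout replicate 3 alone carried most of the signal, while the overexpression libraries were nearly equal. The means were 7.25 ± 8.61 and 0.427 ± 0.0679 CPM (SD, n = 3 each), for a fitted log2 change of -4.08 (SE 0.86, edgeR, adjusted p = 0.00709). Without knockout replicate 3 its knockout mean was 2.29 CPM and its fitted log2 change -2.41 (adjusted p = 0.00152).

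Genes that act with von Willebrand factor formed a list of 11, of which 8 were tested. Among these 2 fell, 1 rose and 5 did not pass, beside 18% called lower and 13.6% called higher over all tested genes. Mmrn1, a multimerin stored in platelets and endothelium, had 76, 32 and 12 counts with knockout and 0 in every overexpression library, and was at least 11.9-fold lower (edgeR, adjusted p = 0.00472), or at least 6.83-fold lower without knockout replicate 1. Rab27a, which acts in the release of secretory granules, fell by 3.47 on the log2 scale (edgeR, adjusted p = 0.00337), or by 2.54 without knockout replicate 3. It shares exon bases with a pseudogene, Gm27186. Rab3d, another small GTPase of secretory granules, rose by 0.65 on the log2 scale (edgeR, adjusted p = 0.0164). It did not pass when knockout replicate 1 was left out (adjusted p = 0.0699), and its log2 value was -0.53 under the epithelial scaling. The 2 highest log2 fold changes of the list, neither of which passed, were those of Gp1bb, a subunit of the platelet receptor for von Willebrand factor, and F8, the coagulation factor that it carries. Gp1bb had 12, 0 and 0 counts with knockout and 34, 24 and 36 with overexpression (log2 fold change 2.92, edgeR adjusted p = 0.0575). It passed as higher without knockout replicate 1 (adjusted p = 0.00108) and with the replicate number as a block (0.0261), and its exons overlap those of Sept5 and Gm49601 on the same strand. F8 had a log2 fold change of 1.01 (edgeR, adjusted p = 0.243). Adamts13, the protease that cleaves von Willebrand factor, had at most 5 counts in any library.

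Divided by the summed length of their exons, the levels of the 9 genes with knockout followed the order Eng (9.7 CPM per kilobase), Tek (4.87), Pecam1 (2.3), Cdh5 (2.02), Esam (1.71), Egfl7 (1.25), Tie1 (0.835), Vwf (0.452) and Emcn (0.205). Only Eng was separate from its neighbour, since the libraries of every other adjacent pair overlapped. With overexpression the order of the levels per kilobase was Tek (2.92), Eng (0.441), Pecam1 (0.431), Egfl7 (0.213), Esam (0.158), Tie1 (0.0472), Vwf (0.0266), Cdh5 (0.0087) and Emcn (0.00417). The libraries of neighbouring genes overlapped between Eng and Pecam1, Egfl7 and Esam, Tie1 and Vwf, and Cdh5 and Emcn. Tek was separate from all others. By these values Cdh5 moved from the fourth place to the eighth. With 3 counts or fewer in every overexpression library, its place there is not resolved, nor is that of Emcn.

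A further 30 genes of endothelium, not among the 9, were read from the same fit. Of these 24 were tested, of which 20 fell, 1 rose and 3 did not pass, beside 18% called lower and 13.6% called higher over all tested genes. The median log2 fold change was -3.95, or -3.47 with genes at 3 counts or fewer in all overexpression libraries set to their bound. Without knockout replicate 3, 18 of the 24 were called lower. A total of 14 of the 30 had at most 3 counts in every overexpression library. Plvap, the diaphragm protein of fenestrated capillaries, had 232, 268 and 734 counts with knockout and 0, 2 and 1 with overexpression. It was at least 118-fold lower with overexpression, or at least 77.2-fold lower without knockout replicate 3 (edgeR, adjusted p = 5.22e-05 over all libraries). Clec14a, a lectin-like receptor of tumour vessels, was at least 27.0-fold lower (edgeR, adjusted p = 0.000161).

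Both main VEGF receptors were among the genes that fell. Kdr, which encodes VEGFR2, had 157, 233 and 563 counts with knockout and 2, 2 and 4 with overexpression, a log2 fold change of -6.82 (edgeR, adjusted p = 5.79e-05) that was -6.22 without knockout replicate 3. Flt1, which encodes VEGFR1, fell from 8.3 ± 1.55 to 0.67 ± 0.187 CPM (SD, n = 3 each), for a fitted log2 change of -3.62 (edgeR, adjusted p = 6.88e-05). Cd34, present on endothelium and also on fibroblasts and hair follicle stem cells, fell from 277 ± 148 to 1.45 ± 0.0875 CPM (SD, n = 3 each). Its exons overlap those of the antisense gene Gm16897.

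The exception in direction was Mmrn2, a matrix protein of the vessel wall. It was at 21.5, 32.5 and 13.4 CPM with knockout and at 67.8, 91.1 and 110 CPM with overexpression. The overexpression libraries were all above the knockout libraries, and the log2 fold change was 2.00 (SE 0.32, edgeR, adjusted p = 0.00168), or 0.90 under the epithelial scaling (adjusted p = 0.0199). The 3 genes that did not pass were Arhgef15, She and Cd93. Arhgef15, an exchange factor of vascular cells, had 5.53 ± 1.01 and 4.7 ± 1.1 CPM (SD, n = 3 each), and She, an adaptor, had a log2 fold change of -1.13 (edgeR, adjusted p = 0.556 and 0.214). Cd93, a lectin of endothelium and myeloid cells, had a log2 fold change of -2.14 (edgeR, adjusted p = 0.0526). It passed as lower without knockout replicate 1 (adjusted p = 0.0261) or 2 (0.0395) and with the replicate number as a block (0.0279). When knockout replicate 3 was left out, Cd93 had a fitted log2 change of -0.80 (adjusted p = 0.221). Without any 1 overexpression library its adjusted p lay between 0.101 and 0.122.

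**Figure D2:**
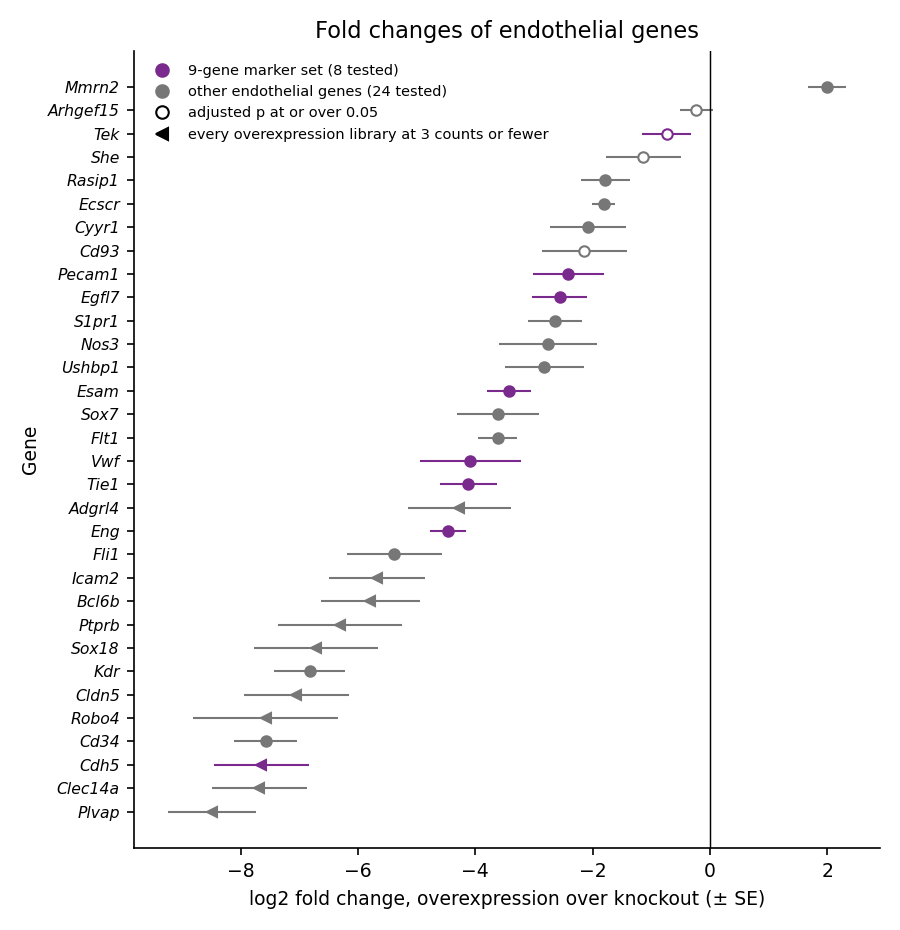
Log2 fold changes of overexpression over knockout with standard errors for the 8 tested endothelial markers (purple) and 24 other tested endothelial genes (grey), sorted, with open symbols for genes that did not pass the threshold. Triangles mark genes with 3 counts or fewer in every overexpression library, whose fitted value is no measure of size. Mmrn2 is the gene to the right of 0, and Tek, Arhgef15, She and Cd93 are open.

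Genes of vessel subtypes were read from 4 short lists, beside 18% called lower and 13.6% called higher over all tested genes. Under the epithelial scaling 4 arterial, 5 venous, 3 capillary and 4 tip cell genes of those tested were called lower and 0 higher, and without knockout replicate 3 the arterial and tip cell lists had 1 gene called lower each. Of all 18504 tested genes, the epithelial scaling called 12123 lower. Of 6 tested arterial genes 2 fell, the gap junction gene Gja4 (log2 fold change -1.76, edgeR adjusted p = 0.00328) and the Notch ligand Dll4 (-1.88, adjusted p = 0.0231), whose adjusted p was between 0.0548 and 0.0781 without knockout replicate 2 or 3 or overexpression replicate 1 or 3. The other 4 did not pass. Unc5b and Gja5 had the highest log2 fold changes among them, 0.56 and 0.05 (edgeR, adjusted p = 0.102 and 0.962). Of 5 tested venous genes 3 fell: the chemokine-binding receptor Ackr1, at least 46.8-fold, whose exons overlap those of Cadm3 on the same strand; the adhesion molecule Vcam1 (log2 fold change -4.98); and the apelin receptor Aplnr (-4.01). Aplnr had a log2 fold change of -2.02 without knockout replicate 3, and adjusted p-values of 0.0546 to 0.0736 when any 1 overexpression library was left out. The other 2 venous genes, Nr2f2 and Ephb4, did not pass, with log2 fold changes of -0.19 and 0.36 (edgeR, adjusted p = 0.536 and 0.254).

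Of 5 tested capillary genes 2 fell and 2 rose. Those that fell were Kdr, given above, and Car4, a carbonic anhydrase, which was at least 23.2-fold lower, or 12.6-fold without knockout replicate 3. The water channel Aqp1 and the fatty acid transporter Cd36 rose by 1.61 and 2.20 on the log2 scale (edgeR, adjusted p = 0.00475 and 0.0202). Without overexpression replicate 1 the log2 fold change of Cd36 was 1.49 (adjusted p = 0.0708), and it also did not pass without knockout replicate 1 (0.0569) or 2 (0.0525). When libraries were scaled to the epithelial markers, neither gene passed (adjusted p = 0.129 for Cd36 and 0.196 for Aqp1). Of 5 tested genes of sprouting tip cells, 2 fell: Dll4, given above, and Cxcr4, a chemokine receptor that leukocytes also carry. The knockout mean of Cxcr4 was 42.6-fold the level of 3 counts in the shallowest overexpression library, or 19.3-fold without knockout replicate 3. Its overexpression libraries held 3, 3 and 1 counts, so this is no strict bound.

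Among the knockout libraries, all 9 markers were highest in replicate 3. The ratio of that library to the mean of knockout replicates 1 and 2 was 7.51 for Vwf, 4.17 for Pecam1, 4.03 for Emcn, 3.03 for Cdh5, 2.37 for Egfl7, 2.001 for Tek, 1.9 for Tie1, 1.69 for Esam and 1.19 for Eng. The markers thus did not move by a common factor between these libraries. The summed level of 12 leukocyte markers was 4.89 times as high in knockout replicate 3, that of 10 fibroblast markers 1.12 times, that of 10 mural cell markers 0.97 times and that of the 23 epithelial markers 0.611 times. The part of these cell types in the differences among knockout libraries was not tested. With a single library on one side, these ratios have no replicate check.

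**Figure D3:**
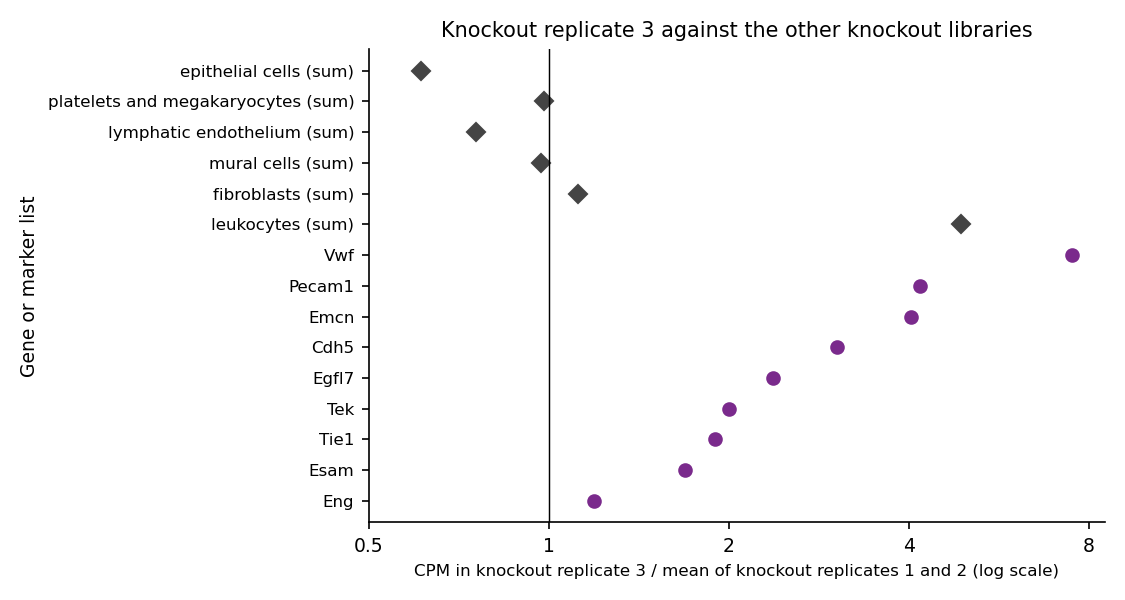
CPM in knockout replicate 3 divided by the mean CPM of knockout replicates 1 and 2, on a log scale, for each endothelial marker (purple circles) and for the summed markers of other cell type lists (grey diamonds). The markers spread from 1.19 (Eng) to 7.51 (Vwf), and the leukocyte sum lies at 4.89.

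Among the genes whose levels were most like the mean of the 8 tested markers over the 6 libraries, out of 13074 other genes with a mean log2 CPM of at least 0, were Dock2, Samsn1, Klri2 and Rasal3. Their Pearson correlations were between 0.9991 and 0.9997, taken on the log2 scale over 6 libraries that fall into 2 separate groups, and are given as a description only. Dock2, an exchange factor of migrating leukocytes, was at 3.87, 7.24 and 32.7 CPM with knockout and at most at 0.0759 CPM with overexpression. The correlation of a single marker with the mean of the 8 was 0.692 for Tek and between 0.935 and 0.981 for the others, each of which is part of that mean.

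Markers of other cells that could lie near or within vessels were measured beside the endothelial genes. Over all tested genes, 18% were called lower and 13.6% higher. All 10 fibroblast markers fell, with a summed level of 63852 to 90340 CPM with knockout and 2380 to 3598 CPM with overexpression, and a median log2 fold change of -7.81. Dpt and Dcn, matrix proteins of fibroblasts, had the lowest values, -9.98 and -8.77, and Dcn was at -9.55 without overexpression replicate 3. Of 10 mural cell markers 8 fell, 1 rose and 1, Mcam, did not pass, with sums of 525 to 670 CPM and 112 to 178 CPM. Rgs5, a pericyte gene, had 3059, 1332 and 1695 counts with knockout and 0, 0 and 15 with overexpression. The Notch receptor gene Notch3 had a log2 fold change of 0.80 (edgeR, adjusted p = 0.0358), and of -0.33 under the epithelial scaling. Its adjusted p-values were 0.0732 to 0.128 without knockout replicate 2 or 3 or overexpression replicate 2 or 3. The exons of Notch3 share 488 bases with the antisense gene Gm17276.

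The leukocyte and platelet calls stand beside 18% called lower and 13.6% called higher over all tested genes. Of 12 leukocyte markers 8 were tested, of which 7 fell and 1, Csf1r, did not pass (edgeR, adjusted p = 0.103). Their summed level was 44.0, 79.2 and 301 CPM in knockout replicates 1, 2 and 3 and 8.98 to 19.0 CPM with overexpression. Ptprc, which encodes the common leukocyte antigen CD45, was at 10.6, 21.6 and 88.1 CPM with knockout and at 0.427 to 0.541 CPM with overexpression, a log2 fold change of -6.34 that was -5.02 without knockout replicate 3. Csf1r passed as higher without overexpression replicate 3 (log2 fold change 1.17, adjusted p = 0.0189). Its exons share 873 bases with Hmgxb3 on the other strand. Platelet markers summed to 16.5 to 19.9 CPM with knockout and 11.9 to 12.8 CPM with overexpression. Of 4 tested genes 1, Itga2b, had an adjusted p of 0.0456, which was over 0.05 in 5 of the 6 fits that left out 1 library, all but that without knockout replicate 1. The platelet genes Pf4, Gp9 and Gp6 had at most 17 counts in any library, and Treml1 had 0 in all 6. Fibroblast, mural and leukocyte markers moved with the endothelial genes between the groups, and their part in the result was not tested.

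Several lymphatic markers, though not Lyve1 or Pdpn, had another pattern among the knockout libraries. Counts of Ccl21a, a chemokine of lymphatic endothelium, were 691, 470 and 0 in replicates 1, 2 and 3 of the knockout and 0 in every overexpression library. Prox1, the transcription factor that sets lymphatic identity, had 29, 22 and 0 counts with knockout and at most 1 with overexpression. Both were at 0 in knockout replicate 3, where the 9 markers were highest, and neither passed the count filter. Of 4 tested genes of this list of 7, 3 fell: Mmrn1, given above, Flt4 (VEGFR3) and Pdpn (podoplanin, which carcinoma cells and fibroblasts also carry), with log2 fold changes of -2.80 and -1.39 for the last 2 (edgeR, adjusted p = 0.00548 and 0.000449). Flt4 was at 5.22, 3.01 and 1.23 CPM with knockout and at 0.329 to 0.575 CPM with overexpression. Pdpn was at 177, 230 and 171 CPM in knockout replicates 1, 2 and 3. Lyve1, the other tested gene, had 27, 12 and 19 counts with knockout and 13, 28 and 45 with overexpression. It did not pass (log2 fold change 0.54, edgeR, adjusted p = 0.449). The shares over all tested genes were 18% lower and 13.6% higher. Ccl21a belongs to a family of near-identical genes, so its counts are uncertain.

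**Figure D4:**
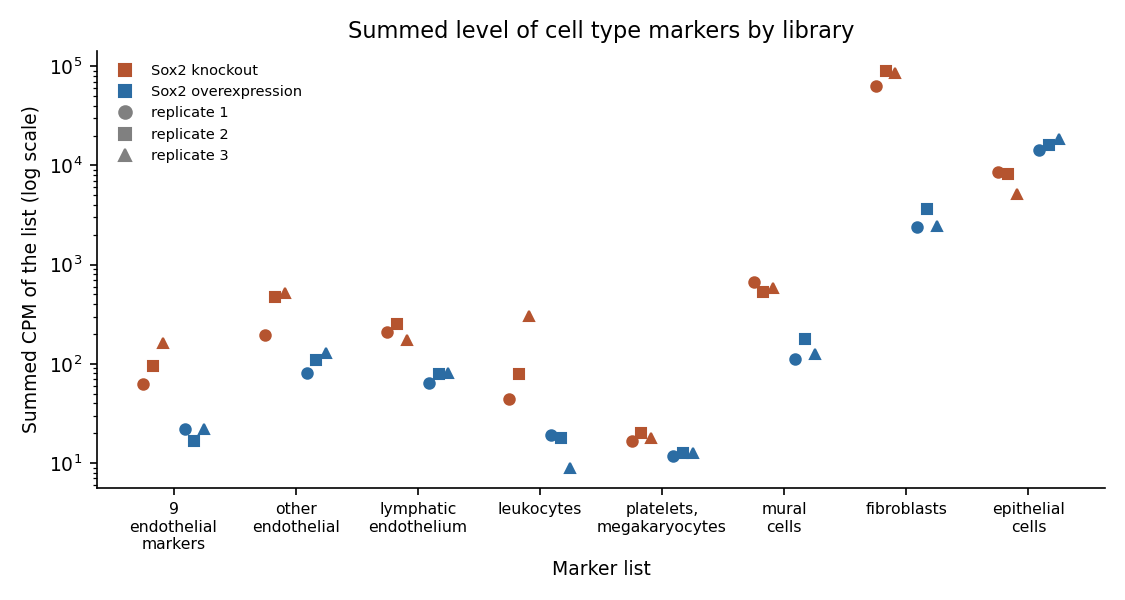
Summed CPM of the marker lists in each library on a log scale (knockout in brown, overexpression in blue, symbols for replicates). The 9 endothelial markers and the leukocyte markers are highest in knockout replicate 3, while the epithelial list is lowest there, at 5098 CPM.

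Under the 4 scalings of the libraries, TMM, RLE, upper quartile and the epithelial markers, the 7 markers that fell did so each time. Over all tested genes the median log2 value went from -0.02 to -1.18 under the epithelial scaling, which called 12461 genes, of which 97.3% were lower, against 56.9% of the 5848 genes called with TMM. All 8 tested markers fell there, Tek among them (log2 fold change -2.01).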

How the data were processed

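RNA from 6 libraries of PDVC57 cells was measured by RNA-seq. The deposited table holds counts per gene made by the authors, whole numbers that are not normalized. The submitters' processing notes name kallisto 0.44.0 and the mm10 genome, with no role or order, and the counting steps, strand setting and filters are not given in the sources used here. Of 55481 rows, 55385 are mouse genes, 92 are ERCC spike-ins and 4 are construct sequences. The spike-in and construct rows made up 2.23e-05% or less of the counts and stayed out of library sizes and tests. Symbols, coordinates and exon lengths came from GENCODE M21 (GRCm38), which gave a symbol for 55144 gene identifiers and none for 241. The 9 members and the other lists were chosen with earlier results of these data known.

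Genes passed edgeR's filterByExpr (minimum count 10, minimum total 15), which left 18504. The groups were compared with edgeR 4.0.16 in R 4.3.3 (TMM scaling, quasi-likelihood test, Benjamini-Hochberg adjustment over all tested genes, threshold 0.05). CPM values use TMM library sizes. Genes with 3 counts or fewer in every overexpression library are given as a bound, the knockout mean against 3 counts in the shallowest overexpression library. This bound leaves out the spread of the knockout libraries. The rule for named genes allowed the 9 members, up to 4 genes of every other list (the tested genes with the 2 highest and the 2 lowest log2 fold changes), ligands and partners of a member in the short lists, and the 5 genes most like the members, of which 1 is not reported here. Not every gene that it allowed is described (Magi1, Apln, Kcnj8, Fn1, Thy1, Tyrobp, Itgam, Gp1ba, Ppbp and those of the epithelial list are not). Outside this rule, Ctnnd1, Smad1, Id1, Tgfbr2, Rab3d, Aplnr, Flt1, Cd34, Cd93, She and the untested Bmp10, Gdf2, Smad9, Adamts13, Ccl21a, Prox1, Pf4, Gp9, Gp6 and Treml1 were chosen after their values were seen. On data simulated from the counts with 18504 genes, the test recovered 78 of 112 genes changed 4-fold and 25 of 88 changed 2-fold, with 11 false among 114 calls. Alternatives were other scalings, no count filter, DESeq2 1.42.0, the replicate number as a block, and leaving out each library.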

Additional observations from a re-analysis of the deposited data

Results flagged for a closer look

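One signal lay outside the gene rows compared above. The row of the mCherry construct had 8 counts in knockout replicate 3, 1 count in knockout replicate 2 and 0 counts in the other 4 libraries. Knockout replicate 3 is also the library with the highest level of all 9 endothelial markers. Whether the cells or the host carried mCherry is not given in the sources used here.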

How the results depend on the processing

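The number of endothelial markers called lower was 7 of 8 under RLE and upper-quartile scaling, DESeq2 and TMM. It was 8 of 8 under epithelial scaling, and 8 of 9 with no count filter, where Emcn was tested and Tek was not called. It was 6 to 8 when each library was left out in turn. Over the other endothelial genes the count of 20 lay between 17 and 21 in those fits, and over all genes 4114 to 5696 were called. Epithelial scaling moved the count over all genes from 5848 to 12461. Among 68 named genes, it also reversed the sign of 10 log2 fold changes, none of them of a member: Angpt1 (-0.65), Foxo1 (-0.51), Smad6 (-0.035), Smad7 (-0.46), Jup (-0.037), F11r (-0.28), Ctnnd1 (-0.66), Rab3d (-0.53), Csf1r (-0.32) and Notch3 (-0.33). This scaling assumes constant epithelial markers, and which scaling suits these libraries was not tested.

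The replicate numbers were not taken to pair the libraries, since same-numbered libraries had correlations of deviations of 0.0528, 0.0562 and -0.0474, and not every library correlated best with its own number. With the replicate number as a block, 7 endothelial markers, 21 other endothelial genes and 5593 genes in all were called. Of 68 named genes the block changed the call of 3, gained for Cd93 and Gp1bb and lost for Ctnnd1. Id1, Lyve1, Unc5b, Gja5, Nr2f2 and Ephb4 are not among these 68. Genes with few counts, Emcn, Tie1 and Cdh5 among them, have overexpression levels at or near the limit of detection, so the size of their difference is bounded by depth.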
